A study of Mus musculus with 9 samples.

Results

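Messenger RNA of 7 GABA-A receptor subunit genes was examined in mouse hippocampus, out of 18820 genes measured on the same arrays. The genes were selected by name as Gabra2, Gabra3, Gabra4, Gabra5, Gabrd, Gabrb1 and Gabrb2, with earlier results of these data known. All 7 were measured and lay far above background. The series comprised 9 arrays of whole hippocampus from C57BL/6 mice aged 12 to 14 weeks, in 3 groups of 3 that the titles call biological replicates. Control mice had no surgery named in the labels, surgery mice had a tibia fracture, and the third group received Maresin 1, a lipid mediator made from docosahexaenoic acid, before the same fracture. The labels name no vehicle for the other 2 groups. Hippocampi were taken 72 h after surgery, and the series addresses the action of Maresin 1 on brain inflammation around surgery.

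GABA-A receptors are chloride channels opened by the inhibitory transmitter GABA, and each is assembled from several subunits. Receptors with alpha2 or alpha3 and a gamma subunit sit mainly at synapses and carry brief, phasic inhibition. Receptors with alpha5, or with alpha4 and delta, sit mainly outside synapses and carry a steady, tonic inhibition by ambient GABA. In the hippocampus alpha5 is abundant in the dendritic fields of the pyramidal cells, and alpha4 with delta in the granule cells of the dentate gyrus. Beta subunits are needed by both kinds of receptor and form the GABA binding site together with an alpha subunit. Gabra4, Gabra5 and Gabrd are therefore called extrasynaptic below, Gabra2 and Gabra3 synaptic, and Gabrb1 and Gabrb2 are kept apart. The division is one of main location, since alpha5 receptors are also found at synapses.

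Most members lie in clusters of subunit genes. On chromosome 5 of the GRCm38.p6 assembly Gabrg1, Gabra2, Gabra4 and Gabrb1 follow each other, with 1 other protein-coding gene, Cox7b2, between Gabra2 and Gabra4. Gabra4 (chr5:71569734-71658308) and Gabrb1 (chr5:71657921-72149572) run in opposite directions, and their outermost annotated starts lie 387 bases apart with the transcripts overlapping. Gabra5 lies on chromosome 7 (chr7:57407669-57591016) beside Gabrg3, Gabrb2 on chromosome 11 (chr11:42419515-42632591) beside Gabra6, and Gabra3 on chromosome X (chrX:72432676-72656919) between Gabre and Gabrq. Gabrd lies on chromosome 4 (chr4:155384979-155398098), far from Gabrr2 on the same chromosome.

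The 250 bases before the start are shown for Gabra4 and Gabra3, the members with the largest differences between groups, and for Gabra2, the neighbour of Gabra4. For Gabra3 the table holds 2 starts, and the outermost was taken. They are from RefSeq on GRCm38.p6, 5′ to 3′ on the minus strand, at chr5:71658309-71658558, chrX:72656920-72657169 and chr5:71095850-71096099. Capitals mark a GC box (GGGCGG) or a TATA motif (TATAAA), on either strand.
Gabra4: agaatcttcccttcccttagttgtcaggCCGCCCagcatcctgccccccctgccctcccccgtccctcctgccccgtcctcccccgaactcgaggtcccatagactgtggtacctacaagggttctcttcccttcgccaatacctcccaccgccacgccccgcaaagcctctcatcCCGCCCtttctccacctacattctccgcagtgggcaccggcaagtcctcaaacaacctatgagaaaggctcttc
Gabra3: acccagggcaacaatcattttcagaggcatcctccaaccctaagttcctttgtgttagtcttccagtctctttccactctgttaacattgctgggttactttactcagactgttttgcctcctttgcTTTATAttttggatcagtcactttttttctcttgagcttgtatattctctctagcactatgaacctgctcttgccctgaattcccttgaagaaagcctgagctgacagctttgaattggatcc
Gabra2: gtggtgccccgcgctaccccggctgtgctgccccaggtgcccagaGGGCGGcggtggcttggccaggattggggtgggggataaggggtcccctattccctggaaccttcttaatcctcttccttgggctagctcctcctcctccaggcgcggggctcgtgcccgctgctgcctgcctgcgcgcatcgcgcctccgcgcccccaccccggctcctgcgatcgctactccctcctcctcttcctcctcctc

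The windows of both genes of the chromosome 5 cluster are rich in G and C, at 61.2% for Gabra4 and 70% for Gabra2, with 12 and 18 CpG dinucleotides. That of Gabra3 has 42.4% and 0 CpG dinucleotides, against medians of 52.4% and 6 over 32851 windows of the same length in the table. Gabra4 holds 2 GC boxes and Gabra2 holds 1, a motif found in 32.7% of all windows. Gabra3 holds 1 TATA motif, on the strand opposite to transcription and 123 bases before the start, and 12.4% of all windows hold that motif. Other motifs were searched on both strands and are in none of these 3 windows, namely the EGR motif GCGNGGGCG, which can share bases with a GC box and is in 4.7% of all windows, the CRE half-site TGACG in 17.8% and the E-box CACGTG in 6.02%. These matches are descriptions of the letters. Because the Gabra4 window lies inside the span of Gabrb1, it is no window of Gabra4 alone.

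Signals are given as log2 of the quantile-normalised intensity plus 16, and a level of one gene is not compared with that of another, because probe sets differ in brightness. Differences were tested with limma in 1 model over the 9 arrays, and the threshold for a call was 0.05 for p after Benjamini-Hochberg adjustment across the 18820 genes. As a guide to background, olfactory receptor genes lay below 5.86 in 95% of cases, and 13363 genes lay above that level. Control replicates 2 and 3 stood apart from the other 7 arrays by choroid plexus transcripts, with a deposited Ttr signal of 5034 and 6065 against 58.7 to 302 elsewhere, so members' values against control replicate 1 as the only control are given too, and those of the pathway genes where the direction turned or the size moved by over 1.5 times. Of markers of the labelled tissue, all 11 measured dentate granule genes, 8 CA1 genes and 10 CA3 genes lay above the guide level. All 12 thalamus genes, 10 neocortex genes and 7 of 8 measured striatum genes of the lists also did. The guide level thus does not tell hippocampus from other brain tissue, and these lists do not show that adjoining tissue was absent. In whole tissue, fewer cells of a type and less RNA per cell cannot be told apart.

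**Figure D1:**
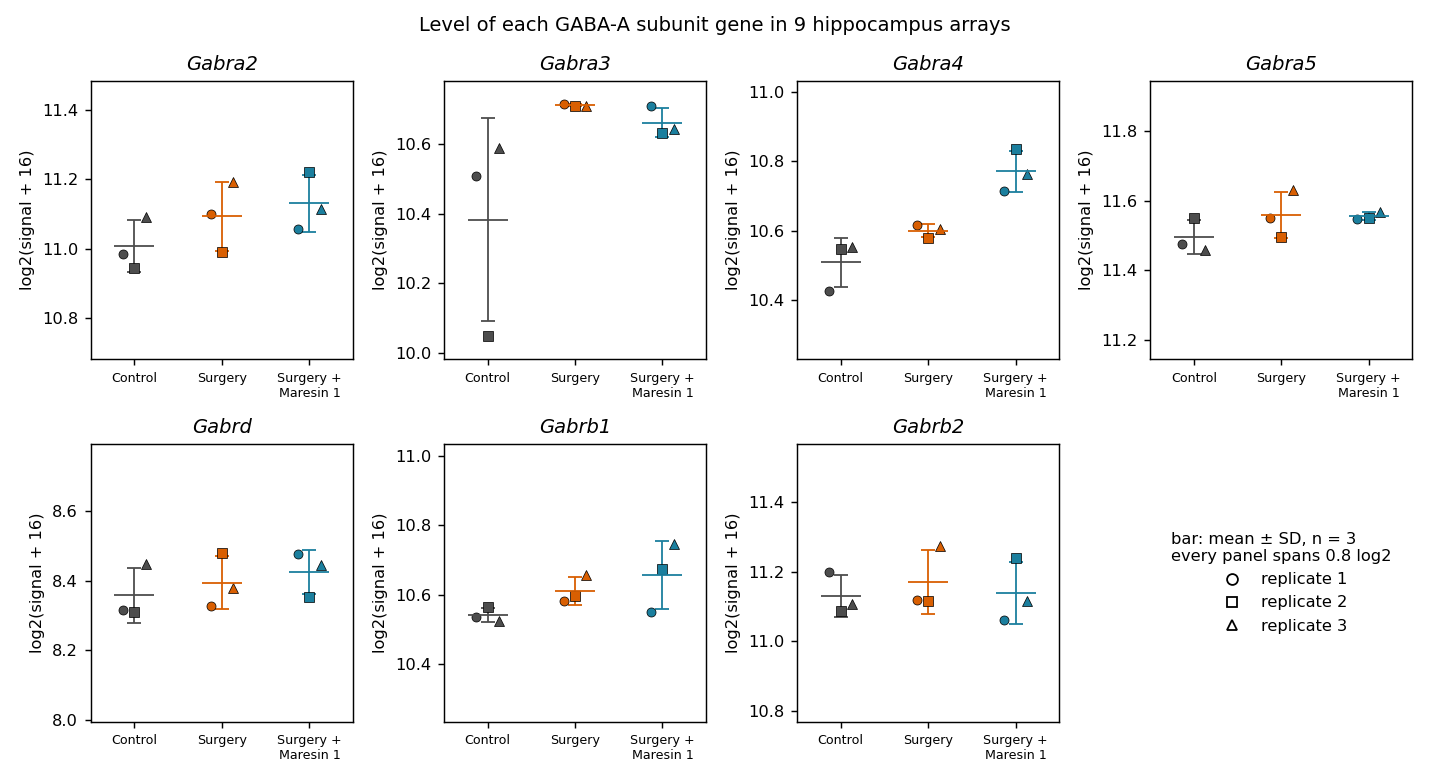
Levels of the 7 subunit genes on the log2(signal + 16) scale, by group, with 1 point per array (circle, square and triangle for replicates 1, 2 and 3) and bars for mean ± SD (n = 3); each panel has its own range of equal width. Gabra4 rises in steps from control through surgery to Maresin 1 without overlap, and Gabra3 has 1 control array, at 10.05, far below the other 8.

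No subunit gene passed the threshold in any of the 3 comparisons. The largest separation was that of Gabra4, the alpha subunit of tonic receptors in granule cells, which stood highest in the mice given Maresin 1. The other extrasynaptic genes, Gabra5 and Gabrd, differed by less than 0.07 between any 2 groups. Of the synaptic genes, Gabra3 stood lower in control than in both groups of operated mice, with 1 control array carrying much of the gap. Gabra2 and the beta subunit genes differed by at most 0.12.

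Gabra4, which gives receptors that classical benzodiazepines do not act on, was at 10.43, 10.55 and 10.55 in control replicates 1, 2 and 3. It was at 10.61, 10.58 and 10.60 after surgery, and at 10.71, 10.83 and 10.76 with Maresin 1 and surgery. Every surgery array lay above every control array, and every Maresin 1 array above every surgery array. This full order was seen in 84 genes, 0.446% of all, and the reverse order in 63. Means were 10.51 ± 0.07 (SD, n = 3), 10.60 ± 0.02 and 10.77 ± 0.06.

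The Gabra4 difference between Maresin 1 and control was 0.26 (SE 0.05, 95% interval 0.15 to 0.37), a 1.2-fold higher mean in all 3 arrays. Its adjusted p in limma was 0.0829, and it ranked 38th by p. It was among 91 genes, 0.484% of those tested, with an adjusted p below 0.1. Against surgery the difference was 0.17 (SE 0.05, interval 0.06 to 0.28, limma adjusted p = 0.859), at rank 67. Between surgery and control it was 0.09 (SE 0.05, interval -0.02 to 0.20, limma adjusted p = 0.811), so that the step without overlap there was small against the spread of the control arrays. It was 0.25 with arrays scaled to one median, 0.05 without control replicate 1 and 0.17 with that array as the only control. These comparisons share groups and are not independent of each other.

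The step of Gabra4 above control kept its direction without the controls with choroid plexus signal, but its size moved with the choice of control arrays. With control replicate 1 as the only control the Maresin 1 difference was 0.34, from a lone array that gives no spread of its own. Leaving out each array in turn gave 0.22 to 0.29. The surgery difference was 0.17 with that lone control and 0.05 without it. Control replicate 1 was the lowest of all arrays for Gabra4, at 10.43. The part of the choroid plexus signal in this step was not tested. The step of Maresin 1 above surgery depended on the scaling of the arrays. When each array was scaled to one median it was -0.0073, in a setting that moved the median of all genes to -0.09 and that of genes above the guide level to -0.11. With no normalization it was 0.10, and with cyclic loess 0.16.

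**Figure D2:**
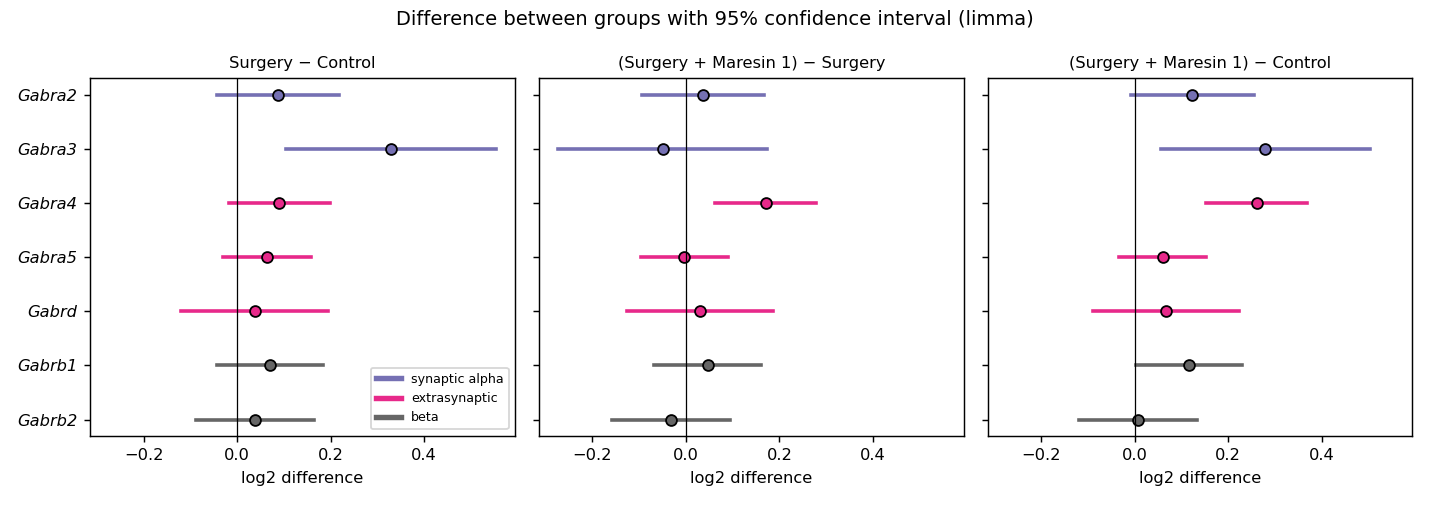
Difference between groups for each subunit gene on the log2 scale, as points with 95% confidence intervals from limma, in 3 comparisons; colours give the synaptic alpha, extrasynaptic and beta genes. The interval of Gabra4 lies above 0 in both comparisons that involve Maresin 1, and that of Gabra3 in both comparisons with control, before adjustment over all genes.

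The ratio of 2 deposited signals within an array is free of any factor common to the whole array. It is not free of differences between arrays that vary with brightness. The log2 ratio of Gabra4 to Gabra5 was -1.06, -1.07 and -0.92 in control, -0.97, -0.93 and -0.99 after surgery, and -0.84, -0.72 and -0.81 with Maresin 1. All 3 Maresin 1 arrays lay above the other 6. Relative to the control mean, this ratio stood at 0.22 ± 0.06 (SD, n = 3) with Maresin 1 and at 0.05 ± 0.03 after surgery. Against Gabrb2 the Maresin 1 mean was 0.24 ± 0.04 and against Gabra2 it was 0.13 ± 0.03, also with no overlap with the other arrays, though for Gabra2 the gap was narrow (0.11 against 0.10 in surgery replicate 2). Against Gabrd it was 0.14 ± 0.14, with overlap.

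The ratio to Gabrb1, whose start adjoins that of Gabra4, was 0.14 ± 0.08 above the control mean with Maresin 1, and 0.02 ± 0.04 after surgery. Maresin 1 replicate 3 stood at 0.05, within the range of the other arrays, and replicates 1 and 2 at 0.19 and 0.18. Of the 3 Maresin 1 arrays, 2 thus lay above all other arrays in this ratio.

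**Figure D3:**
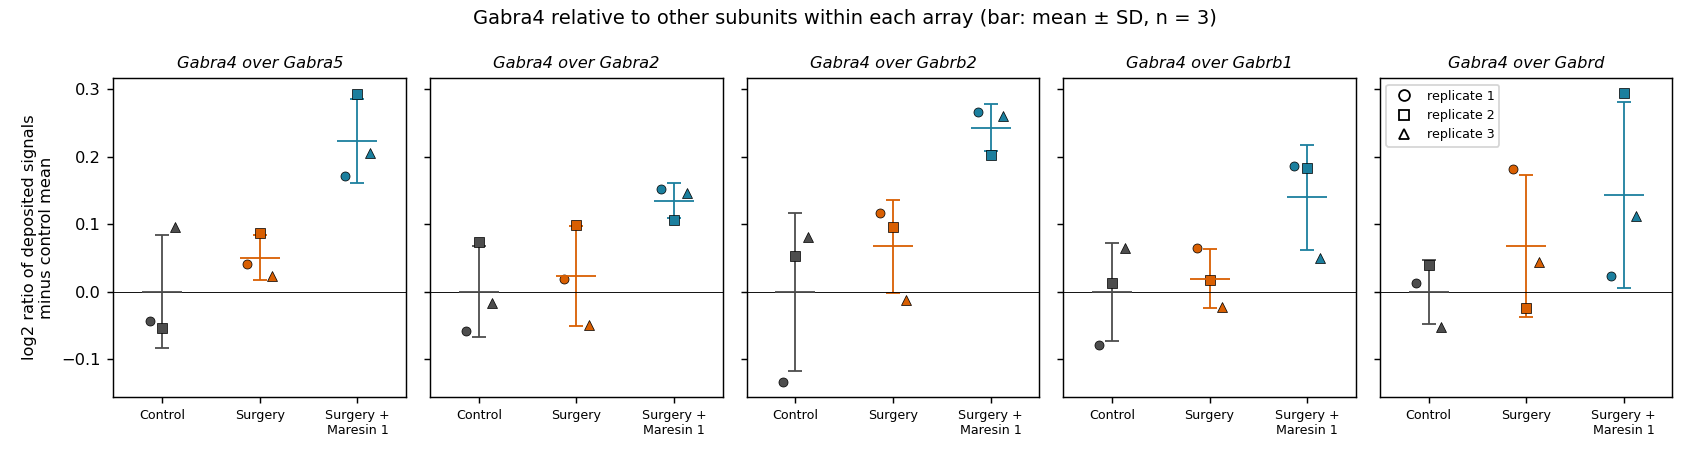
Log2 ratio of the deposited signal of Gabra4 to that of Gabra5, Gabra2, Gabrb2, Gabrb1 and Gabrd within each array, minus the control mean, with 1 point per array and bars for mean ± SD (n = 3). The 3 Maresin 1 arrays lie above all others for the ratios to Gabra5, Gabra2 and Gabrb2, and overlap with them for the ratios to Gabrb1 and Gabrd.

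Markers of dentate granule neurons, the cells in which alpha4 is prominent, moved in the same direction as Gabra4 between surgery and Maresin 1. Of 11 measured list genes 10 were higher with Maresin 1, where 41.7% of all genes were. Of these 7 were without overlap (background 4.79% of all genes), and the list mean difference was 0.21, beside 0.17 for Gabra4. None of the 11 passed the adjusted threshold. The list was chosen with earlier results of these data known, so its counts are a description only. Trpc6 differed by 0.49, Dock10 by 0.29 and Prox1, which sets granule cell identity, by 0.24. These 3 were named after their values were seen, as the list genes with an unadjusted p under 0.05 in limma. The other list genes ran from -0.10 (Pdzd2) to 0.25 (Glis3), with Calb1 at 0.09. The mean deviation of the list from the average of the 9 arrays was -0.30, 0.10 and 0.01 in control, -0.09 to -0.06 after surgery and 0.06 to 0.20 with Maresin 1. The order among the Maresin 1 arrays was the same for the list and for Gabra4, with replicate 2 highest and replicate 1 lowest.

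Between Maresin 1 and control 9 of 11 list genes were higher, where 49% of all genes were. Of these 5 had an unadjusted p under 0.05 in limma (background 5.87%) and 3 were without overlap (background 7.61%). The list mean difference was 0.20 beside 0.26 for Gabra4. Much of the list difference came from control replicate 1, where the list stood at -0.30. Control replicates 2 and 3 stood at 0.10 and 0.01, beside 0.06, 0.20 and 0.15 with Maresin 1. Within the controls the order differed. Gabra4 stood below its average in all 3 controls, at -0.20, -0.08 and -0.07, while the list was below it in control replicate 1 alone. Gabra4 minus the list score was 0.10, -0.19 and -0.08 in control, 0.02 to 0.07 after surgery and -0.01 to 0.03 with Maresin 1. CA1 genes had a mean difference of -0.08 between Maresin 1 and surgery, CA3 genes -0.05 and interneuron genes -0.04. Oligodendrocyte genes had one of 0.11, with 7 of 8 higher. The part of these cell markers in the Gabra4 difference was not tested.

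**Figure D4:**
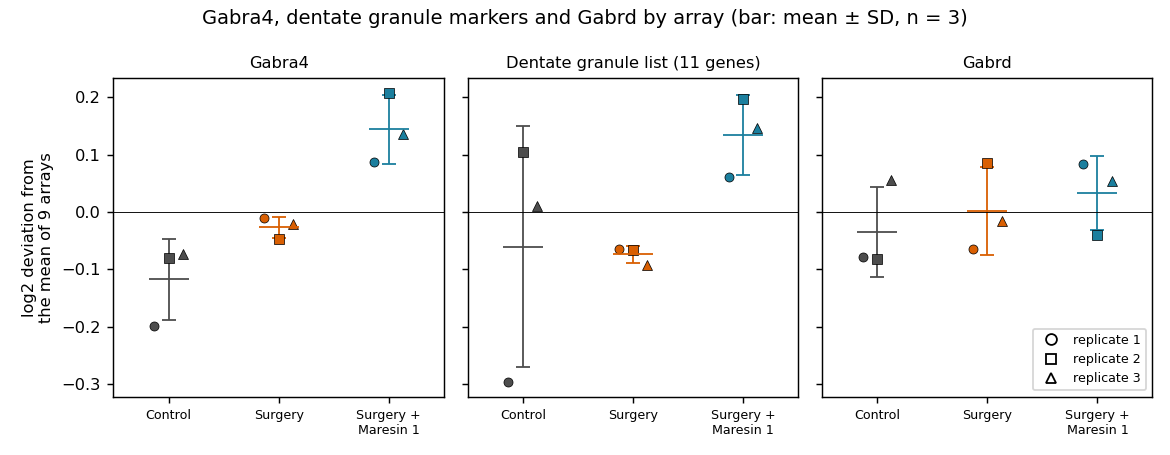
Deviation from the mean of the 9 arrays (log2) of Gabra4, of the mean of 11 dentate granule marker genes and of Gabrd, with 1 point per array and bars for mean ± SD (n = 3). Gabra4 and the list are both highest in Maresin 1 replicate 2, at 0.21 and 0.20, while Gabrd stands at -0.04 there.

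Gabrd, the delta subunit that pairs with alpha4 and makes tonic receptors sensitive to neurosteroids, was at 8.31, 8.31 and 8.45 in control. It was at 8.33, 8.48 and 8.38 after surgery and at 8.48, 8.35 and 8.45 with Maresin 1, so the groups overlapped throughout. The difference was 0.07 (SE 0.07, 95% interval -0.09 to 0.22) between Maresin 1 and control, 0.03 (SE 0.07, interval -0.13 to 0.19) between Maresin 1 and surgery, and 0.04 (interval -0.12 to 0.19) between surgery and control. The last value was -0.0048 without surgery replicate 2. Against control replicate 1 alone Gabrd differed by 0.08 after surgery and by 0.11 with Maresin 1. Limma adjusted p ran from 0.803 to 0.964. In Maresin 1 replicate 2, where Gabra4 was highest, Gabrd was lowest of its group.

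Gabra5, the subunit of hippocampal tonic receptors that has been linked to memory and to the amnesic action of anaesthetics, was at 11.48, 11.55 and 11.46 in control. It was at 11.55, 11.50 and 11.63 after surgery and at 11.55, 11.55 and 11.57 with Maresin 1. Surgery spanned the Maresin 1 values, and control replicate 2 lay among them. Gabra5 had the smallest spread of the members, with a within-group SD of 0.05, below all but 8.16% of genes above the guide level. The difference was 0.06 (SE 0.04, interval -0.03 to 0.16) between surgery and control, 0.06 (interval -0.03 to 0.15) between Maresin 1 and control, and -0.0034 (interval -0.10 to 0.09) between Maresin 1 and surgery. These intervals are the narrowest of the 7 genes but hold for the quantile-normalised values. With arrays scaled to one median the surgery difference was 0.20 and that between Maresin 1 and surgery -0.18. Against control replicate 1 alone Gabra5 differed by 0.08 after surgery and by 0.08 with Maresin 1.

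Of the synaptic genes, Gabra3 was at 10.51, 10.05 and 10.59 in control. After surgery it was at 10.71 in all 3 arrays, and with Maresin 1 at 10.71, 10.63 and 10.65. All 6 arrays of operated mice lay above the 3 controls. The alpha3 subunit is known mainly from cortex, thalamic reticular nucleus and monoamine neurons rather than from hippocampal principal cells. The difference was 0.33 between surgery and control (SE 0.10, 95% interval 0.11 to 0.55, limma adjusted p = 0.671), 0.28 between Maresin 1 and control (interval 0.06 to 0.50, limma adjusted p = 0.301) and -0.05 between Maresin 1 and surgery (interval -0.27 to 0.17).

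Control replicate 2 set much of the size. Without it the surgery difference was 0.16 and the Maresin 1 difference 0.11, and with control replicate 1 as the only control they were 0.20 and 0.15. The deposited Gabra3 signal of control replicate 2 was 788, against 1369 in control replicate 3, while the median signals of these arrays were 73.2 and 70.3. The neocortex list was also lowest in control replicate 2, at a mean deviation of -0.30 against -0.15 to 0.15 in the other 8 arrays, and the thalamus list at -0.17 against -0.12 to 0.11. The interneuron list stood at -0.14 there and at -0.13 to 0.10 elsewhere. The part of these lists in the Gabra3 value was not tested.

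Gabra2, the alpha subunit of synapses on the initial axon segment of pyramidal cells, was at 10.99, 10.95 and 11.09 in control. It was at 11.10, 10.99 and 11.19 after surgery and at 11.06, 11.22 and 11.12 with Maresin 1, and all groups overlapped. Its difference was 0.12 (SE 0.06, interval -0.01 to 0.25, limma adjusted p = 0.472) between Maresin 1 and control and 0.09 (SE 0.06) between surgery and control, or 0.15 and 0.11 against control replicate 1 alone.

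Gabrb1, a beta subunit gene expressed in neurons and some glia, was at 10.54, 10.56 and 10.52 in control. It was at 10.58, 10.60 and 10.66 after surgery, above all controls, and at 10.55, 10.68 and 10.75 with Maresin 1. Its difference was 0.07 (SE 0.05) between surgery and control and 0.12 (SE 0.05, interval 0.0022 to 0.23, limma adjusted p = 0.427) between Maresin 1 and control, or 0.08 and 0.12 against control replicate 1 alone. Gabrb2, a beta subunit through which several general anaesthetics act, was at 11.20, 11.09 and 11.11 in control, at 11.12, 11.12 and 11.28 after surgery, and at 11.06, 11.24 and 11.12 with Maresin 1. The groups overlapped, and the differences ran from -0.03 to 0.04. Against control replicate 1 alone they were -0.03 after surgery and -0.06 with Maresin 1. Gabrb2 is the only member with several probe sets of its own, 3 in number, whose differences between Maresin 1 and control were 0.05, 0.01 and -0.06, within their spread (within-group SD 0.08 to 0.10).

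The 7 genes and all lists were chosen with earlier results of these data known. Their counts beside those of all genes are therefore a description only. Taking the 7 genes as a list, all 7 were higher after surgery than in control, at a median of 0.07, where 58.4% of all genes were higher, at a median of 0.02. None was called, against 0% of all genes, and 1 had an unadjusted p under 0.05 in limma (Gabra3), against 3.9% of all genes on the higher side and 6.21% in either direction. Groups did not overlap for 3 of 7 (Gabra3, Gabra4 and Gabrb1), against 7.71%. Of the 8 other measured GABA-A subunit genes, 4 of them above the guide level, 5 were higher in this comparison and 0 were without overlap. With Maresin 1 against control all 7 were again higher, at a median of 0.12, where 49% of all genes were. None was called, against 0.085% of all genes, and 3 had an unadjusted p under 0.05 in limma (Gabra3, Gabra4 and Gabrb1), against 5.87% on the higher side and 11.5% in either direction. Groups did not overlap for 2 of 7 (Gabra3 and Gabra4), against 7.61%. Both comparisons use the same controls. Against control replicate 1 alone 6 of 7 were higher in each, all but Gabrb2, with no share of all genes taken. Endothelium markers also stood lower in the controls, at list means of -0.25 to -0.19 against -0.10 to 0.29 in the other 6 arrays, with 9 of 9 genes higher in either comparison. Of 9 microglia genes 8 were higher after surgery. The part of these lists in the members' shared direction was not tested.

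With Maresin 1 against surgery 4 of 7 were higher, at a median of 0.03, where 41.7% of all genes were higher, at a median of -0.02. None was called, against 0% of all genes. Gabra4 alone had an unadjusted p under 0.05 in limma, against 1.96% of all genes on the higher side and 5.66% in either direction, and alone was higher without overlap, against 4.79%. Gabra3 was lower without overlap by a margin that vanishes on rounding, against 8.2% of all genes.

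The balance of extrasynaptic and synaptic genes was read as the mean deviation of each class from the average of the 9 arrays. The extrasynaptic mean was -0.11, -0.05 and -0.03 in control, -0.02, -0.0007 and 0.02 after surgery, and 0.06, 0.06 and 0.07 with Maresin 1, with no overlap between groups. Gabra4 carried this order. Without it the mean of Gabra5 and Gabrd was -0.07 to -0.01, -0.03 to 0.04 and -0.01 to 0.05, with overlap.

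The synaptic mean was -0.08, -0.33 and 0.01 in control, 0.08, 0.02 and 0.12 after surgery, and 0.05, 0.10 and 0.05 with Maresin 1. The operated groups overlapped each other and lay above the controls. The beta genes overlapped in all 3 groups, at means of -0.04 ± 0.03 (SD, n = 3), 0.02 ± 0.06 and 0.02 ± 0.08.

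Extrasynaptic minus synaptic was -0.03, 0.28 and -0.04 in control, -0.10, -0.02 and -0.10 after surgery, and 0.01, -0.03 and 0.03 with Maresin 1. The difference of these balances was -0.14 between surgery and control, which fell in size to -0.04 without control replicate 2. It was -0.07 between Maresin 1 and control and 0.03 without that array, so the sign rested on it. Against control replicate 1 alone these were -0.04 and 0.03. Between Maresin 1 and surgery it was 0.07, and surgery replicate 2 overlapped the Maresin 1 arrays. That shift was larger than the SD of surgery (0.04) and of Maresin 1 (0.03). Both shifts against control were smaller in size than the control SD of 0.18. No test was made on these means.

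**Figure D5:**
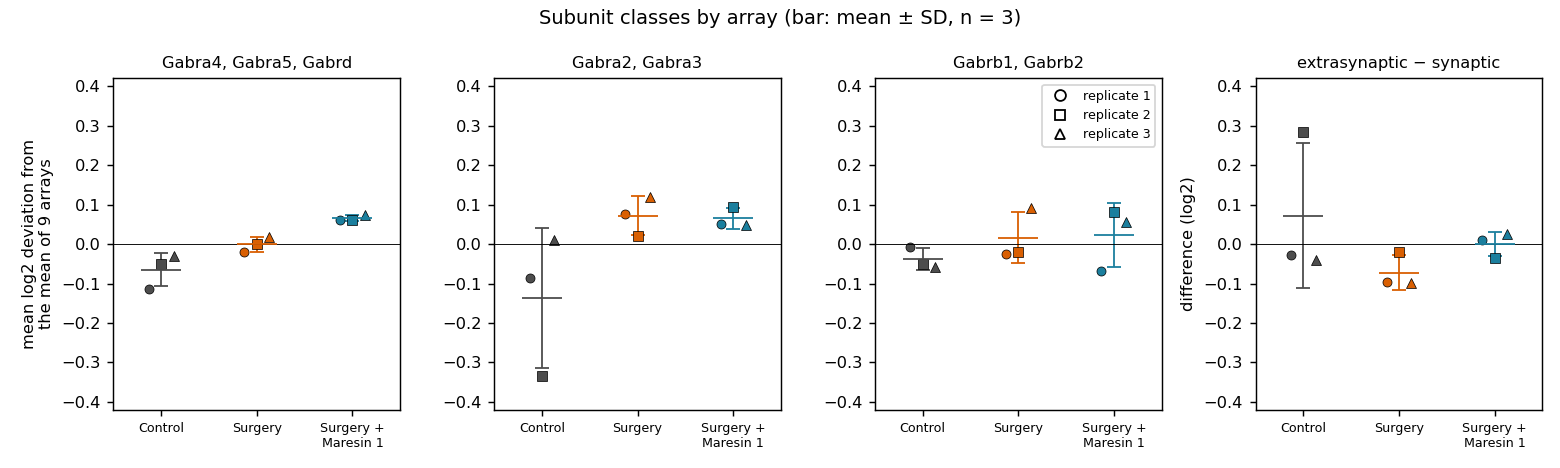
Mean log2 deviation from the average of 9 arrays for the extrasynaptic, synaptic and beta genes, and extrasynaptic minus synaptic, with 1 point per array and bars for mean ± SD (n = 3). The extrasynaptic means rise without overlap from control to Maresin 1, and control replicate 2 stands alone at -0.33 in the synaptic panel and 0.28 in the balance.

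Other genes of GABA signalling were read from lists chosen with earlier results of these data known, so their counts are a description only. None was called in any comparison. Of 12 further GABA-A subunit genes 8 were measured and 4 lay above the guide level. Gabrg1, a gamma subunit gene of the chromosome 5 cluster, differed by 0.16 (SE 0.08) between surgery and control and by 0.17 (SE 0.08, limma adjusted p = 0.467) between Maresin 1 and control. Gabrg3 differed by 0.01 and Gabre by -0.06 between Maresin 1 and control, or by -0.06 and 0.12 against control replicate 1 alone. Gabrr2, of the rho subunits best known from retina, differed by 0.19 (SE 0.12) between surgery and control, -0.03 against control replicate 1 alone, and by -0.16 between Maresin 1 and surgery.

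Of 22 measured genes of receptor scaffold and traffic, 15 were lower and 7 higher with Maresin 1 than in control. The median was -0.04, and 49% of all genes were higher there. The same counts of 15 and 7 were found against control replicate 1 alone. With all controls, 8 of the 22 had an unadjusted p under 0.05 in limma on the lower side, against 5.61% of all genes. On the higher side 4 had one, against 5.87%. Groups did not overlap for 4 lower genes, against 6.71%, and for 4 higher genes, against 7.61%. After surgery against control 1 gene had such a p on each side (2.31% of all genes lower and 3.9% higher). Groups did not overlap for 2 lower genes (3.82%) and 2 higher genes (7.71%). With Maresin 1 against surgery 3 were lower with such a p, against 3.7%, and 2 higher, against 1.96%. There 4 were lower without overlap, against 8.2%, and 2 higher, against 4.79%. Of 11 measured pan-neuronal markers, 7 were lower with Maresin 1 than in control, where 49% of all genes were higher. On the lower side 4 markers had an unadjusted p under 0.05 in limma (5.61% of all genes) and 4 did not overlap (6.71%). Against surgery 8 were lower, 4 with such a p (3.7%) and 5 without overlap (8.2%), where 41.7% of all genes were higher. In each of these comparisons 1 marker was higher without overlap (7.61% and 4.79% of all genes). The part of these markers in the scaffold values was not tested. Rdx encodes radixin, which anchors alpha5 receptors to actin, and it differed by 0.22 (SE 0.05, limma adjusted p = 0.127) between Maresin 1 and control without overlap. Mdga1, whose product restrains the synapse organiser neuroligin 2, differed by -0.34 (SE 0.08, limma adjusted p = 0.115) between Maresin 1 and control, also without overlap, and by -0.21 between surgery and control. The palmitoyl transferase gene Zdhhc3 (-0.13, SE 0.05) and the trafficking gene Gabarapl2 (0.09, SE 0.04) had the smallest p between Maresin 1 and surgery (limma adjusted p = 0.859 for both). Trak2, which links receptors to motor proteins, differed by 0.12 (SE 0.05) between surgery and control.

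Of 8 measured genes that make, load or clear GABA, 7 were higher after surgery than in control, where 58.4% of all genes were. Against control replicate 1 alone 5 were, with no share of all genes taken. With Maresin 1 against control 5 were higher, where 49% of all genes were. Of the 8 genes 0 had an unadjusted p under 0.05 in limma in any comparison. Gad2, one of the enzymes that make GABA, differed by 0.21 (SE 0.11) between Maresin 1 and control and by 0.14 between Maresin 1 and surgery, and Slc6a11, a glial GABA transporter, by 0.13 (SE 0.06) between surgery and control, or 0.24 against control replicate 1 alone. Abat and Aldh5a1, of GABA breakdown, differed by 0.08 (surgery against control, or 0.15 against control replicate 1 alone) and 0.10 (Maresin 1 against control). Slc6a13, a GABA transporter of the brain's coverings and vessels, differed by -0.25 (SE 0.21) between Maresin 1 and surgery. Of 5 GABA-B receptor genes none had an unadjusted p under 0.05 in limma, with Kctd16 at 0.17 in both comparisons of Maresin 1, Kctd12 at -0.11 against control (0.0012 against control replicate 1 alone) and -0.09 against surgery, and Gabbr2 at -0.03 and Gabbr1 at -0.01 between surgery and control.

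Chloride carriers set the direction of GABA-A currents. Slc12a2, which encodes the chloride importer NKCC1, differed by -0.30 (SE 0.08, limma adjusted p = 0.63) between surgery and control without overlap. Its controls were at 9.78, 10.08 and 10.01, the higher values being those of the arrays with choroid plexus signal, a tissue that also expresses NKCC1, and surgery replicate 1 was at 9.76. With Maresin 1 against surgery it differed by 0.14 (SE 0.08). Against control replicate 1 alone the surgery difference was -0.12. The part of that tissue was not tested. Oxsr1, a kinase that activates NKCC1, differed by 0.21 between surgery and control and by 0.26 (SE 0.07, limma adjusted p = 0.183) between Maresin 1 and control, both without overlap. Against control replicate 1 alone these were 0.13 and 0.19. Slc12a5, which encodes the neuronal chloride exporter KCC2, differed by -0.08 (SE 0.06) between Maresin 1 and surgery. The kinase gene Stk39 differed by -0.18 (SE 0.09) between Maresin 1 and control, a direction that turned to 0.07 against control replicate 1 alone. Its controls were at 9.98, 10.29 and 10.43, high only in the arrays with choroid plexus signal. Of the genes for neurosteroids and endozepines, Dbi, whose product binds at the benzodiazepine site, differed by 0.23 (SE 0.07, limma adjusted p = 0.859) between Maresin 1 and surgery without overlap. Between surgery and control Dbi differed by -0.14, and by 0.04 against control replicate 1 alone, the controls being at 10.63, 10.89 and 10.88. Akr1c14, of allopregnanolone synthesis, differed by 0.38 (SE 0.11, limma adjusted p = 0.21) between Maresin 1 and control, and by 0.34 between surgery and control, at levels below the guide in all 9 arrays. Tspo, a mitochondrial protein gene of glia, differed by -0.30 (SE 0.16) between Maresin 1 and control, -0.06 against control replicate 1 alone, and by -0.21 between Maresin 1 and surgery.

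Patterns over the 9 arrays were compared with those of 12799 other genes above the guide level, by Pearson's r, as a description in which arrays share their group and their normalization. The genes most like Gabra4 were Rap1b, Orc3 and Rdx, each with r = 0.97. Those most like Gabra3 were Pgf, Sec22c and Fut10 (0.97 to 0.96), and like Gabra5 Baiap2, Upf1 and Zfp113 (0.96 to 0.89). Aldh5a1 (0.95), Slc1a2 and Cd83 (0.91 each) were most like Gabrd, Ttll1, Sdcbp and Taco1 (0.93 to 0.91) like Gabra2, Fbxo38, Zfp866 and Phip (0.97 to 0.94) like Gabrb1, and Adar, Ube2j1 and Morc4 (0.98 to 0.94) like Gabrb2. No gene appeared for more than 1 member.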

How the data were processed

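The deposited table holds intensity, a linear signal for 35556 probe sets on 9 arrays. Per the submitters' processing notes, the authors used Affymetrix Expression Console, with no version or algorithm named. Biotin-labelled cRNA was made from 6 µg of total RNA, per the labels' protocols. Array medians ran from 54.1 to 100.1, so signals were quantile normalised, 16 was added and log2 was taken. Of 21218 probe sets with 1 gene, 21185 matched the RefSeq gene table by identifier, and the highest-mean probe set stood for each of 18820 genes. Groups came from the titles. Tests used limma 3.58.1 in R 4.3.3 with a variance prior that follows the mean, Benjamini-Hochberg adjustment over all genes, and no dim filter or covariate, and the pipeline was tested on simulated data. Arrays have no read depth, and 3 per group limits the precision. Members and lists were chosen with earlier results of these data known. All members are described; of the fixed pathway lists, subunit genes above the guide level and the 2 genes with the smallest p per list and comparison are named, and 3 genes with the highest r per member. Dentate markers were named after their values were seen. Promoters matched 6 of 7 members. Alternatives changed the normalization, offset, probe set rule, filter, prior, weights, block and samples.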

Additional observations from a re-analysis of the deposited data

How the results depend on the processing

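No member was called under any of 21 alternatives in any comparison, and of 147 member values per comparison 3 changed sign for surgery against control, 16 for Maresin 1 against surgery and 6 for Maresin 1 against control. Scaling to one median gave, between Maresin 1 and surgery, -0.12 for Gabra2, -0.0073 for Gabra4, -0.079 for Gabrd and -0.13 for Gabrb1, and moved the median of all genes to -0.09 there and to 0.10 between surgery and control. Without normalization the values there were -0.013 for Gabra2 and -0.021 for Gabrb1, and against control -0.012 for Gabra5 and -0.032 for Gabrb2. Between Maresin 1 and surgery Gabra5 stood at 0.0091 with cyclic loess and 0.0060 with array weights, and Gabrd at -0.0076 with array weights. Control replicate 1 as the only control, chosen after the data had been seen, gave Gabrb2 -0.029 after surgery and -0.061 with Maresin 1. The cause was not tested for these values. Leaving out each array in turn gave, between surgery and control, -0.0048 to 0.082 for Gabrd and -0.013 to 0.073 for Gabrb2. With Maresin 1 against surgery it gave -0.015 to 0.085 for Gabra2, -0.035 to 0.032 for Gabra5, -0.0029 to 0.072 for Gabrd and -0.081 to 0.021 for Gabrb2, and against control -0.042 to 0.046 for Gabrb2. Gabra4 between Maresin 1 and control ran from 0.21 to 0.34, with limma adjusted p from 0.0608 to 1. Over these alternatives the extrasynaptic minus synaptic difference ran from -0.20 to -0.04 for surgery against control, 0.05 to 0.10 for Maresin 1 against surgery and -0.13 to 0.03 for Maresin 1 against control.

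The count of all genes called by limma was 0 between surgery and control (1168 at an unadjusted p under 0.05), 37 with scaling to one median, 42 without normalization and 0 to 169 when each array was left out. It was 0 between Maresin 1 and surgery in every setting (1065 unadjusted). Between Maresin 1 and control it was 16, 38 with scaling to one median, 43 without normalization, 4 with control replicate 1 as the only control, 0 to 245 when each array was left out, and 0 without a trend in the prior or with the 2 groups fitted alone. With the replicate number as a block it was 0, and Gabra4 between Maresin 1 and control had limma adjusted p = 0.178. The numbers are not stated to pair the arrays. Deviations of same-numbered arrays of different groups correlated at -0.23 to 0.02 (median -0.18). Those of arrays with different numbers correlated at -0.21 to 0.25 (median 0.08). Without control replicate 1, which left the controls with choroid plexus signal, the counts were 169 and 245. Between Maresin 1 and control the count was 0 without control replicate 2, 15 without control replicate 3, 0 to 3 without a surgery array and 0 without any 1 of the Maresin 1 arrays.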
